A study of Mus musculus with 12 samples.

Results

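Interferon-stimulated genes are the genes that cells switch on when interferon, a secreted antiviral cytokine, binds its receptor. Chromatin accessibility at 46 of them was followed in brain macrophages of bone marrow (BM) chimeric mice. The members were the named genes of a fixed list, and every ATACseq peak that the deposited tables annotate to 1 of these genes was taken, with promoter peaks and distal peaks kept apart. In the untreated table this gave 144 of 60288 merged peaks, of which 46 were promoter and 98 distal peaks. In the LPS table it gave 138 of 54953 merged peaks, of which 46 were promoter and 92 distal.

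Type I interferon acts through the receptor Ifnar1/Ifnar2 and a complex that contains Irf9, which binds the interferon-stimulated response element (ISRE). Interferon gamma acts through Ifngr1/Ifngr2 and the gamma-activated site (GAS). Lipopolysaccharide (LPS), the endotoxin of Gram-negative bacteria, is sensed by Tlr4 and induces interferon beta in macrophages, which in turn switches on the same genes. In the brain, microglia keep a low basal activity of this programme and raise it during infection, ageing and injury.

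ATACseq marks open chromatin by the places where a transposase inserts adapters. The mice were C57BL/6J hosts, irradiated with 950 cGy and grafted with congenic wild-type BM that carries CD45.1, an allele of the leukocyte antigen CD45. The labels give 3.5 or 9 months between graft and analysis without saying which mouse had which, and the study's text gives 9 months for these profiles. From each brain the graft-derived macrophages (CD45.1) and the host microglia (CD45.2) were sorted, so that both came from the same animal. Untreated mice 4, 5 and 6 gave 3 CD45.1 and 3 CD45.2 libraries. Mice 1, 2 and 3, killed 12 h after 2.5 mg/kg of LPS, gave the other 3 of each, so that the 12 libraries form 4 groups of 3. Values of single libraries are given in the order of these mouse numbers. The host cells had been irradiated and the graft had not, so origin and irradiation cannot be told apart in these groups. Total tags ranged from 8392877.5 to 9107770 per untreated and from 2966364 to 6556594.5 per LPS library. CD45.2 untreated mouse 4 had 18.4% of its tags in merged peaks, against 26.3 to 39.0% in the other 11 libraries. Summed peaks of a fixed microglia list (10 of 10 genes with a peak) were higher in CD45.2 than in CD45.1 libraries, at 1366 to 1514 against 757 to 1096 CPM (counts scaled to the tags in merged peaks of a library) without LPS and 846 to 965 against 636 to 740 after it. Peaks of a border macrophage list (7 of 8 genes with a peak) were higher in CD45.1, at 360 to 390 against 248 to 292 and at 465 to 486 against 330 to 426. Without LPS, peaks of a neutrophil list (4 of 8 genes with a peak) had 57.2 to 59.5 in CD45.1 libraries against 30.8 to 40.2, those of a B cell list (2 of 5) 51.4 to 59.9 against 26.7 to 34.5, and those of a monocyte list (6 of 8) 177 to 258 against 177 to 205. Lists of T and NK cells (3 of 8) and of neurons and macroglia (9 of 9) were lower in CD45.1, at 244 to 282 against 289 to 393 and 422 to 438 against 528 to 548. No listed gene with a peak was at 0 in any group, and the part of such cells in the results given here was not tested. In bulk libraries, fewer cells with an open site and a less open site in each cell cannot be told apart.

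Nearly every member had open chromatin near it in these cells. Without LPS 43 of the 46 genes had at least 1 peak and 39 had a promoter peak, while Ifit1, Oasl2, Parp9 and Ifitm3 had distal peaks alone. Ifi44, Isg15 and Iigp1 had none. After LPS 45 genes had a peak and 38 a promoter peak, and Isg15, the ubiquitin-like modifier, again had none. Each peak carries the name of the nearest start site. A gene without a peak here may thus have open chromatin under a neighbour's name. The gene with the most peaks was Zbp1, a sensor of left-handed nucleic acid, with 10 in the untreated table. The GTPase Irgm1 had 9, and the RNA sensor Ifih1 and the ADP-ribosyltransferase Parp14 had 8 each. Promoters made up 31.9% of the members' peaks against 22.2% of all untreated peaks, and 33.3% against 22.7% in the LPS table. The members' promoters were less open than the typical promoter. Their median was 52.6 normalised tags against 73.1 for all promoter peaks in the untreated table, and 26.2 against 37.4 in the LPS table, where a normalised tag count is the deposited tag count divided by the library's size factor. Their median GC content was 52.4% against 65.0%. Of the 46 untreated promoter peaks, 23 (50.0%) had been called in all 6 libraries, against 65.7% of all promoter peaks. Distal member peaks had the same level as distal peaks in general, with medians of 22.9 and 22.6, and lay closer to their start site, at a median of 10389.5 bp against 17764.5 bp.

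Many of the promoter sequences carry the element through which type I interferon acts. The ISRE was searched as GAAANNGAAA on both strands in the 200 bp around each peak centre. It was present in 27 of 46 member promoter peaks (58.7%) and in 1.92% of all promoter peaks of the untreated table, and in 27 of 46 (58.7%) against 1.86% in the LPS table. At distal member peaks it was found in 15 of 98 (15.3%, against 4.40% of all distal peaks) and 12 of 92 (13%, against 3.95%). The matches at promoters lay close to the start site, with a median position of -48 bp over 37 matches in 27 genes, 28 of them within 200 bp upstream. The GAS motif, TTCNNNGAA, was in 9 of 46 untreated member promoter peaks (19.6%, against 4.03%), and the AP-1 motif, TGANTCA, in 19.6% against 3.07%. Motifs of 2 other factors of macrophages were no more frequent than elsewhere. NF-kappaB (GGGNNNNNCC) was in 54.3% against 59.8%, and PU.1 (GGAAGT) in 23.9% against 25.3%. No window was shifted to catch a motif, the motifs may overlap one another, and a match describes letters and not binding.

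**Figure D1:**
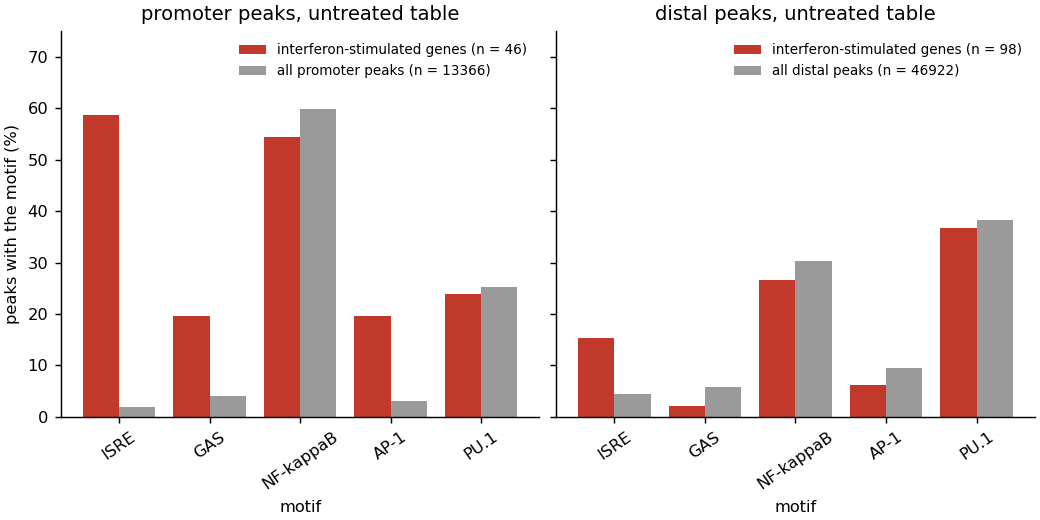
Share of peaks (percent, y axis) that hold each of 5 motifs (x axis) within 200 bp centred on the peak, for promoter and distal peaks of the untreated table. Bars compare the peaks of interferon-stimulated genes with all peaks of the same class. The ISRE stands out at promoters, with 58.7% against 1.92%.

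The following sequences are those of some of the peaks on which the comparisons turn, read from the mm9 reference 5′ to 3′. The 7 promoters show bases upstream of the start site (for Mx2 the whole peak) in the direction of the gene, with bases of annotated exons left out. They were chosen because Ifi47, Oas2, Oas3 and Xaf1 were more open in CD45.1 cells, and Gbp2, Rsad2 and Mx2 opened after LPS. Capitals mark every match to ISRE, GAS, AP-1 or PU.1 on either strand. The ISRE match of Gbp2 is centred at -54 bp, in bases an annotated exon covers, and is not shown. The stretches upstream of Ifih1 and Herc6, which also opened after LPS, are not printed and held none of these motifs. The ISRE match of Ifih1 is centred at 36 bp, downstream of its start site.
Ifi47 promoter at -33 bp, chr11:48889969-48890088, plus strand: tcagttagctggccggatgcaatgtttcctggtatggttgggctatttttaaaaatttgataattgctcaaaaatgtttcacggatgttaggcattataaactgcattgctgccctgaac
Oas2 promoter at -67 bp, chr5:121199863-121199977, minus strand: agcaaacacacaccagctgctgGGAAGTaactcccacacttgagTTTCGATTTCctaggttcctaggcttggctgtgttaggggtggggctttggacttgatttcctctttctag
Oas3 promoter at -39 bp, chr5:121227671-121227788, minus strand: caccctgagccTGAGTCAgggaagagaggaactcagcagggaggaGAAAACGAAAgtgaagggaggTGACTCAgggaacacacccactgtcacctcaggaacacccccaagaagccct
Xaf1 promoter at -61 bp, chr11:72115011-72115130, plus strand: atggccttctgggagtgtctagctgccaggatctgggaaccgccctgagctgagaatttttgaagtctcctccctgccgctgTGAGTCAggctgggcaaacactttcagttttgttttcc
Gbp2 promoter at -66 bp, chr3:142283507-142283565, plus strand: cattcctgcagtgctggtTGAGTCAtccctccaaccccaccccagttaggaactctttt
Rsad2 promoter at -98 bp, chr12:27141318-27141437, minus strand: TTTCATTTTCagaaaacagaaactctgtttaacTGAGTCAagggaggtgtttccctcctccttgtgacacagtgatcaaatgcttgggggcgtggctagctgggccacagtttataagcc
Mx2 promoter at -936 bp, chr16:97756670-97756834, plus strand: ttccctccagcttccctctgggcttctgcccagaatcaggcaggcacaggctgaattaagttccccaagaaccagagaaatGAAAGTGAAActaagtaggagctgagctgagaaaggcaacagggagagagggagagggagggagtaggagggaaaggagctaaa
The Ifi47 stretch holds none of the 4 motifs. Oas2 and Oas3 each carry 1 ISRE, Xaf1 carries AP-1 alone, and Rsad2 carries an ISRE and an AP-1 motif.

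The next 3 sequences are whole distal peaks. The peak upstream of Rsad2 opened after LPS in both populations, the one assigned to Mx1 was nearly closed in CD45.2 cells, and the one upstream of Gbp5 had the largest LPS effect among the members.
Rsad2 distal peak at -3812 bp, chr12:27145050-27145208, plus strand: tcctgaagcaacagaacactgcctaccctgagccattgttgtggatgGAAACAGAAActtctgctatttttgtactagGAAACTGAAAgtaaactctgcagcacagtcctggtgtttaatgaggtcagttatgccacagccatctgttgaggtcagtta
Mx1 distal peak at -9766 bp, chr16:97694223-97694335, plus strand: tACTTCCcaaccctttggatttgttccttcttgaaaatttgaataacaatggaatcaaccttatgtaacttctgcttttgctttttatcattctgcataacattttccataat
Gbp5 distal peak at -18394 bp, chr3:142141452-142141556, plus strand: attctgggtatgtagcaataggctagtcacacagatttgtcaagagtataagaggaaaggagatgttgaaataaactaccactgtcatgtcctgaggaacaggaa
The Rsad2 peak carries 2 ISREs. The Mx1 peak carries a PU.1 motif, and the Gbp5 peak none of the 4. Distal peaks of Parp14 at -31115 bp, Gbp3 at 1161 bp and Irgm1 at 14583 bp, not printed, also held none of the 4.

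The first comparison asks whether graft-derived macrophages and host microglia of the same untreated brains differed at these genes. Of 45 promoter peaks tested, 4 were more open in CD45.1 (8.89%) and 0 in CD45.2, where a peak counted as called at an adjusted p under 0.05 of the DESeq2 Wald test over all tested peaks. Over all promoter peaks the shares were 2.74% and 2.27%. Of 96 distal member peaks tested, 11 in 9 genes were more open in CD45.1 (11.5%) and 0 in CD45.2, against 10.2% and 7.48% of all distal peaks. The share of distal calls towards CD45.1 was thus near that of all distal peaks, and that at promoters rested on 4 peaks. At the stricter rule of an adjusted p under 0.01 and over 4-fold, 1 promoter (against 1.61% of all) and 6 distal member peaks (against 7.81%) were called. Without an adjustment for the number of tests, 10 promoter peaks had a p under 0.05 towards CD45.1 and 0 towards CD45.2, and 16 and 2 distal peaks. Shares of all peaks at this threshold are not given here, so these counts cannot be set against other peaks. The log2 fold change (CD45.1 over CD45.2) was positive at 39 of 45 member promoters (86.7%, against 59.6% of all promoter peaks). Its median was 0.21, with quartiles of 0.07 and 0.49, against a median of 0.05. At distal peaks the median was 0.07 against -0.04. With the mouse as a replicate block, 2 promoter and 8 distal member peaks were called. The promoter count of 4 became 1 without CD45.2 mouse 5 and 2 without CD45.1 mouse 4, CD45.2 mouse 4 (the library with the low share of tags in peaks) or CD45.1 mouse 6. The distal count of 11 became 5 without CD45.2 mouse 5 and 6 without CD45.1 mouse 6.

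The promoter of Ifi47, an interferon-gamma-inducible GTPase that acts on the vacuoles of intracellular pathogens, differed most. Its peak at -33 bp (distance of the peak centre from the start site, negative upstream), chr11:48890004-48890108, had 50.4, 31.0 and 38.1 normalised tags in CD45.1 mice 4, 5 and 6 and 3.28, 2.32 and 1.62 in CD45.2. The lowest CD45.1 library stood far above the highest CD45.2 library. The log2 fold change was 4.14 (SE 0.65, adjusted p = 2.28e-08), and the call held in every alternative tried. The other immunity-related GTPase promoters tested did not pass, and their lowest log2 fold change was 0.09.

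The other 3 promoters belong to antiviral and cell death genes. Oas2 and Oas3 make 2-5A, the messenger that activates RNase L. The Oas3 promoter at -39 bp had 25.2, 23.7 and 26.1 normalised tags in CD45.1 cells and 6.55, 6.19 and 11.4 in CD45.2, and the Oas2 promoter at -67 bp had 29.8, 29.2 and 74.1 against 16.4, 13.2 and 21.9. Neither pair of groups overlapped, and for Oas2 CD45.1 mouse 6 stood apart. The log2 fold changes were 1.61 (SE 0.49, adjusted p = 0.0101) for Oas3 and 1.36 (SE 0.42, adjusted p = 0.0111) for Oas2. All 4 promoters tested of the 2-5A synthetase family lay above 0, between 0.89 and 1.61, and 2 passed. Xaf1, a proapoptotic antagonist of XIAP, had 57.8, 53.9 and 86.0 normalised tags at -61 bp in CD45.1 cells and 29.5, 40.2 and 36.5 in CD45.2, a log2 fold change of 0.86 (SE 0.29, adjusted p = 0.0216). These 3 calls were less firm. The Oas3 and Xaf1 calls were lost with the replicate block (adjusted p = 0.0555 and 0.0984). Oas2 was lost without CD45.2 mouse 4 (0.198), CD45.2 mouse 5 (0.153) or CD45.1 mouse 6 (0.350), Oas3 without CD45.1 mouse 4 (0.0694) or CD45.2 mouse 5 (0.144), and Xaf1 without any of 5 of the 6 libraries (0.0568 to 0.245).

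**Figure D2:**
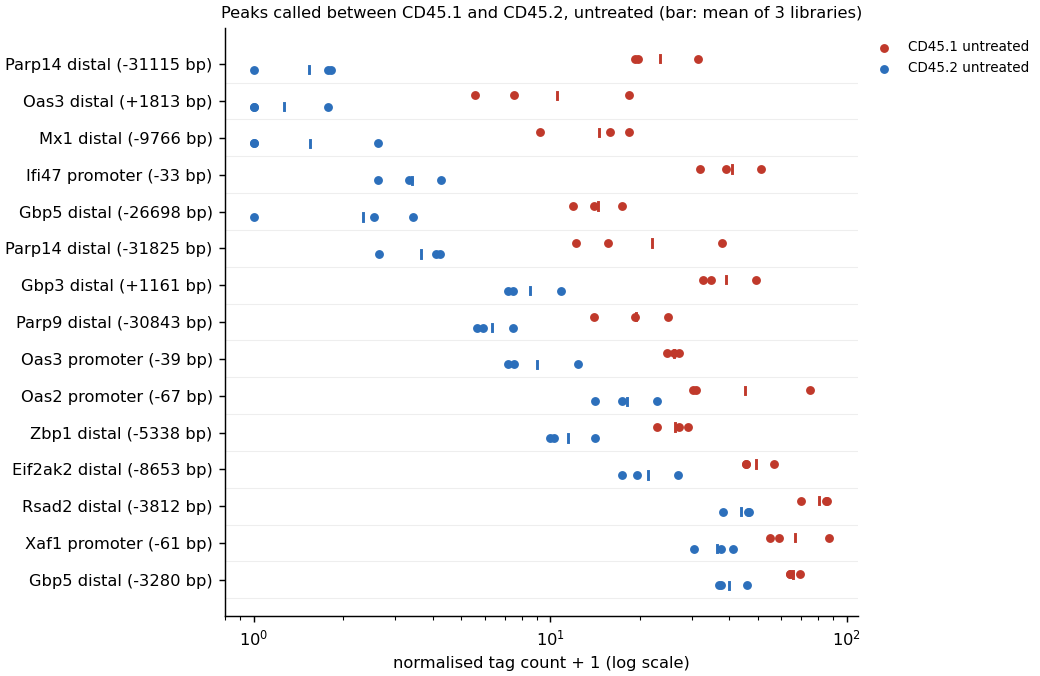
Normalised tag counts plus 1 (x axis, log scale) of member peaks called between CD45.1 and CD45.2 without LPS (y axis), 1 point per untreated library. At the Ifi47 promoter the untreated CD45.1 libraries sit between 31.0 and 50.4 and the CD45.2 libraries between 1.62 and 3.28.

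Several distal sites were open in CD45.1 cells and nearly closed in host microglia. The peak 31 kb upstream of Parp14 (at -31115 bp, intergenic) had 18.7, 18.3 and 30.5 normalised tags in CD45.1 cells and 0, 0.774 and 0.811 in CD45.2. This is a ratio of 27.4 (95% counting interval 9.20 to 291, from 67.5 against 2.5 tags, adjusted p = 8.37e-05). A neighbour at -31825 bp had 11.2, 14.6 and 37.0 against 1.64, 3.10 and 3.25 (log2 fold change 2.88, adjusted p = 0.000968). Mx1, a dynamin-like GTPase that blocks influenza and related viruses, had such a site at -9766 bp, within an intron of Fam3b, with 14.9, 8.21 and 17.4 against 0, 0 and 1.62 normalised tags. Its ratio was 20.6 (5.27 to 174, from 40.5 against 2 tags, adjusted p = 0.00235). A site in the first intron of Oas3 at 1813 bp had 6.53, 4.56 and 17.4 against 0, 0.774 and 0 (ratio 19.3, 3.59 to 123, from 28.5 against 1.5 tags, adjusted p = 0.00864). These sites passed the filter (a count over 10 in any library) through CD45.1 libraries alone. The Oas3 site passed it through CD45.1 mouse 6 alone and was not tested without that library. The intervals cover counting error only.

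Other distal sites also had more tags in CD45.1 cells. The guanylate-binding proteins, GTPases that attack pathogen vacuoles, had 3 such peaks of 11 tested. Gbp3 at 1161 bp, in its own intron, had 48.5, 33.8 and 31.6 normalised tags in CD45.1 cells and 9.83, 6.19 and 6.49 in CD45.2 (log2 fold change 2.41, SE 0.46, adjusted p = 7.64e-06). Gbp5 at -26698 bp was nearly closed in CD45.2, with 13.1, 16.4 and 10.9 against 0, 1.55 and 2.43 (3.13, SE 0.88, adjusted p = 0.00451). This site and the Gbp3 site passed the filter through CD45.1 libraries alone. Rsad2, which encodes viperin, an enzyme that makes a chain-terminating nucleotide, had 69.0, 84.0 and 84.9 against 45.9, 37.2 and 45.4 at -3812 bp (0.90, SE 0.25, adjusted p = 0.00401). Eif2ak2, the RNA-dependent kinase PKR, had 44.8, 44.7 and 55.5 against 16.4, 18.6 and 26 at -8653 bp, in an intron of Sult6b1 (1.22, SE 0.34, adjusted p = 0.00368). In each of the 11 called distal peaks every CD45.1 library lay above every CD45.2 library. The same libraries chose these peaks, so the separation adds no support to the calls. The weakest were Parp9 at -30843 bp (1.76, adjusted p = 0.0220), Zbp1 at -5338 bp (1.33, 0.0294) and Gbp5 at -3280 bp (0.72, 0.0455), all lost with the replicate block (adjusted p = 0.0963, 0.146 and 0.175). Leaving out CD45.2 mouse 5 lost Rsad2 (adjusted p = 0.0938), Eif2ak2 (0.0709) and Gbp5 at -26698 bp (0.0587), leaving out CD45.1 mouse 6 lost Parp14 at -31825 bp (0.0672), and leaving out CD45.2 mouse 6 lost the Oas3 intron (0.0861).

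**Figure D3:**
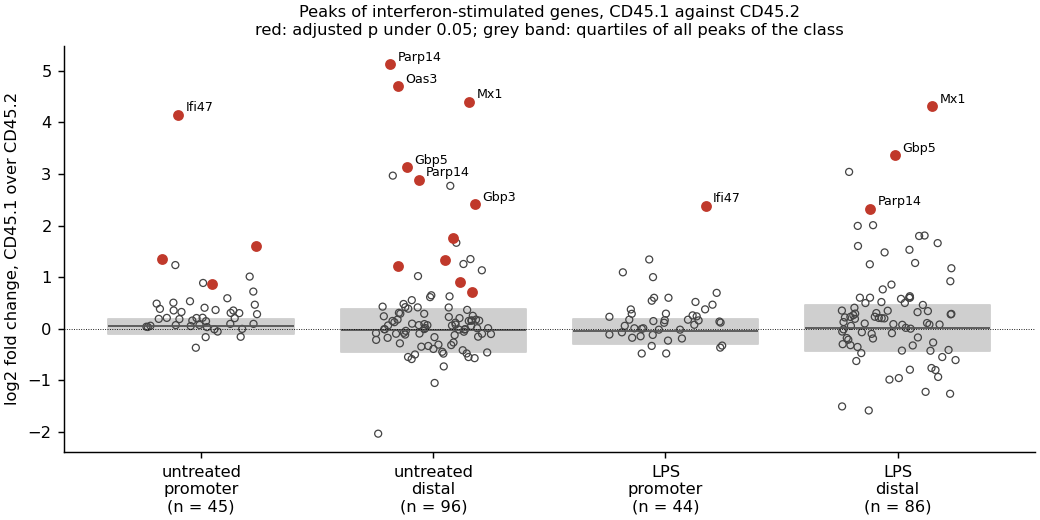
Log2 fold change of CD45.1 over CD45.2 for each tested member peak, promoter and distal peaks in the untreated and the LPS table. Red points passed an adjusted p of 0.05 and the grey band spans the quartiles of all peaks of the class. All red points lie above 0, and most member promoters of the untreated table lie above 0 as well, with a median of 0.21.

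Many of the best-known members were not called between the populations. The Usp18 promoter, whose product removes Isg15 from proteins and restrains the receptor, had 92.6 ± 3.71 normalised tags in CD45.1 cells and 93.3 ± 4.39 in CD45.2 (SD, n = 3 each; log2 fold change -0.0047, adjusted p = 0.994). Irf7, a factor that drives the programme and is not itself a member, had 68.8 ± 16.6 against 48.8 ± 3.47. Bst2, which tethers budding virus to the cell, had 84.7 ± 11.7 against 72.8 ± 7.63. The Mx1 promoter had 92.5 ± 10.2 against 67.7 ± 8.84 (0.46, SE 0.22, adjusted p = 0.164), with every CD45.1 library above every CD45.2 library. Oas1a was low, at 15.1 ± 3.86 against 6.44 ± 1.74 (1.23, SE 0.59, adjusted p = 0.168), and Ifit3 had 11.3 ± 4.92 against 8.02 ± 1.69. The RNA sensor Ifih1 was one of the few promoters with the lower value in CD45.1, at 83.0 ± 1.54 against 108 ± 9.21 (-0.37, SE 0.20, adjusted p = 0.245).

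The same comparison after LPS addresses whether the populations differed in inflamed brains. Of 44 member promoter peaks tested 1 was more open in CD45.1 (2.27%) and 0 in CD45.2, against 1.09% and 1.09% of all promoter peaks, and 3 of 86 distal member peaks (3.49%) and 0, against 5.04% and 2.8%. At an unadjusted p under 0.05, for which no share of all peaks is given, there were 5 and 0 promoter peaks and 11 and 3 distal peaks. The stricter rule called the same numbers, 1 and 3, against 0.919% and 3.62% of all. The medians were 0.14 at promoters (all promoter peaks -0.04) and 0.20 at distal peaks (all 0.01), and 29 of 44 promoters (65.9%) were above 0, against 45.6%. Without CD45.2 mouse 2 the distal count was 1. These libraries were shallower than the untreated ones, so fewer calls do not show that the populations were closer.

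All 4 called peaks overlapped a peak called without LPS. The share of all called peaks that do so is not given here, so this count cannot be set against other peaks. The Ifi47 promoter had 32.3, 30.0 and 26.4 normalised tags in CD45.1 mice 1, 2 and 3 and 8.76, 3.49 and 5.94 in CD45.2 (log2 fold change 2.38, SE 0.51, adjusted p = 0.000231). The groups again did not overlap. This peak, like those of Mx1 and Gbp5 given next, passed the filter through CD45.1 libraries alone. Mx1 at -9769 bp had 17, 19.6 and 15.1 against 0, 0.872 and 1.19, a ratio of 23.1 (7.60 to 245, from 52 against 2.5 tags, adjusted p = 0.000815). Parp14 at -31150 bp had 25.9, 20.9 and 17.9 against 1.75, 1.74 and 7.72 (2.33, SE 0.62, adjusted p = 0.00550), and Gbp5 at -26778 bp 11.3, 13 and 13.2 against 1.75, 1.74 and 0.594 (3.36, SE 0.93, adjusted p = 0.00842). Parp14 was lost without CD45.1 mouse 1 (adjusted p = 0.0935) or CD45.2 mouse 2 (0.120), and Gbp5 without CD45.1 mouse 2 (0.0561), CD45.2 mouse 2 (0.0730) or CD45.2 mouse 3 (0.143). Among the promoters of sensors, Ddx58 (RIG-I) had 26.2 ± 3.69 in CD45.1 cells and 12.3 ± 1.63 in CD45.2 (1.09, SE 0.44, adjusted p = 0.129) with no overlap of the groups. The Rsad2 promoter had 52.9 ± 4.08 against 36.5 ± 2.28 (0.54, SE 0.29, adjusted p = 0.364), again without overlap. The groups overlapped at Bst2, with 51.0 ± 6.59 and 47.1 ± 1.57.

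To ask how each population responded to LPS, peaks of both tables were matched and fitted together. The 2 tables were called and counted separately, so the treatment and the table cannot be told apart, and LPS peaks were wider (median 175 against 143 bp over matched member peaks). In CD45.1 cells 6 of 41 matched member promoters rose (14.6%) and 1 fell (2.44%), against 13.7% and 7.62% of all matched promoter peaks, and 7 of 58 distal member peaks rose (12.1%) and 2 fell (3.45%), against 12.1% and 7.34%. In CD45.2 cells 3 of 41 promoters rose (7.32%) and 0 fell, against 9.9% and 2.33%, and 6 of 58 distal peaks rose (10.3%) and 2 fell (3.45%), against 12.3% and 6.02%. At an unadjusted p under 0.05, 11 promoters lay above and 4 below 0 in CD45.1, and 9 and 0 in CD45.2. At distal peaks these counts were 8 and 5 in CD45.1, and 9 and 6 in CD45.2. No share of all peaks at the unadjusted threshold is given beside them. Leaving out CD45.2 untreated mouse 5 or mouse 6 left 1 CD45.2 promoter that rose, and leaving out CD45.1 LPS mouse 2 or 3 or CD45.1 untreated mouse 4 or 5 left 4 CD45.1 distal peaks that rose. Counts of 2 or fewer that fell became 0 to 3 with a library left out. The shares that rose were near those of all peaks in both populations. The median log2 change (LPS over untreated) at promoters was 0.19 in CD45.1 cells and 0.20 in CD45.2 (all promoter peaks 0.03 and 0.06). The CD45.1 median was -0.02 with an offset for peak width alone, and -0.12 with that offset and any overlap accepted in matching. At distal member peaks the medians were 0.05 and 0.15 (all -0.02 and -0.05), and both were below 0 under other settings (lowest -0.12 and -0.04). Of the 26 matched promoters with an ISRE, 4 rose in CD45.1 cells and 3 in CD45.2, with medians of 0.26 and 0.37. Of the 15 without, 2 and 0 rose, with medians of -0.14 and -0.01. No shares or medians of all promoters with and without an ISRE are given, and the split was not repeated with the width offset. A link between the ISRE and the response was not tested.

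Among promoters matched at 50% reciprocal overlap, that of Gbp2, a guanylate-binding protein, had the smallest adjusted p in both populations. Its peak at -66 bp had 18.7, 12.9 and 12.9 normalised tags in untreated and 44.5, 62.2 and 60.2 in LPS CD45.1 libraries, and 13.1, 13.2 and 17.6 against 42.9, 48.0 and 63.0 in CD45.2. All LPS libraries stood above all untreated ones. The log2 changes were 1.89 (SE 0.31, adjusted p = 7.44e-08) and 1.84 (SE 0.31, adjusted p = 2.14e-07). A second Gbp2 peak, at -812 bp, rose in CD45.1 from 11.8, 6.74 and 12.2 to 21.1, 23.3 and 28.0 (1.24, adjusted p = 0.0207), a call lost without CD45.1 LPS mouse 2 (0.0609) or mouse 3 (0.124), or without untreated mouse 5 (0.120).

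The promoter of Ifih1, the RNA sensor MDA5, rose in both populations, from 56.0, 54.5 and 55.2 to 90.2, 122 and 106 in CD45.1 (0.93, adjusted p = 0.000128) and from 76.2, 75.9 and 65.9 to 141, 94.8 and 99.8 in CD45.2 (0.58, adjusted p = 0.0248). The CD45.2 call was lost without CD45.2 LPS mouse 1 (0.172), untreated mouse 5 (0.0630) or untreated mouse 6 (0.139). Mx2, the second Mx GTPase, rose at -936 bp from 54.8, 52.7 and 60.2 to 91.4, 109 and 92.3 in CD45.1 (0.80, adjusted p = 0.00274). In CD45.2 it went from 31.6, 37.9 and 41.8 to 40.4, 63.2 and 68.3 (0.67, adjusted p = 0.0322), where the groups overlapped and the call was lost without any of 5 libraries (0.0544 to 0.236). In CD45.1 alone, Herc6, the ligase that conjugates Isg15 in mice, rose at -28 bp from 48.5, 63.7 and 51.6 to 68.0, 105 and 118 (0.81, adjusted p = 0.00401, or 0.0932 without LPS mouse 3). The Rsad2 promoter rose from 44.2, 44.1 and 56.6 to 70.3, 79.7 and 83.9 (0.69, adjusted p = 0.0455), and the nuclear body protein Sp100 fell from 9.34, 15.9 and 17.2 to 5.86, 3.89 and 2.80 (-1.72, adjusted p = 0.0387). Rsad2 was lost without any of 8 libraries (0.0515 to 0.170) and Sp100 without any of 5 (0.0507 to 0.170).

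**Figure D4:**
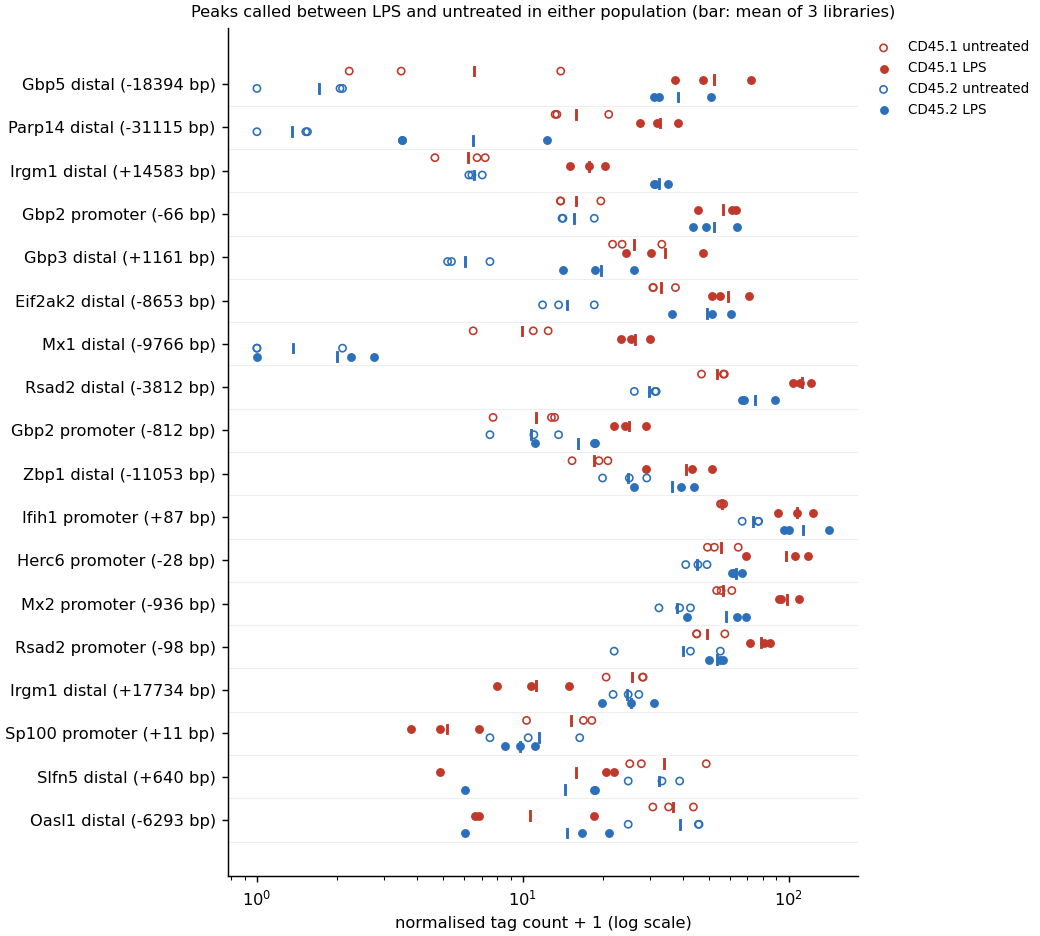
Normalised tag counts plus 1 (x axis, log scale) of member peaks called between LPS and untreated libraries (y axis), 1 point per library in the 4 groups. At the Gbp2 promoter peak at -66 bp the 6 untreated libraries sit between 12.9 and 18.7 and the 6 LPS libraries between 42.9 and 63.0.

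The largest log2 changes among the matched members were at distal peaks. The intergenic peak of Gbp5 at -18394 bp had 2.49, 1.22 and 12.9 normalised tags in untreated and 36.3, 46.6 and 71.3 in LPS CD45.1 libraries, and 0, 1.05 and 1.10 against 30.3, 31.6 and 49.9 in CD45.2. The log2 changes were 3.24 (SE 0.73, adjusted p = 0.000213) and 5.50 (SE 1.01, adjusted p = 2.01e-06). The Rsad2 peak at -3812 bp rose from 46.1, 56.3 and 55.9 to 103, 120 and 109 in CD45.1 (adjusted p = 1.18e-05) and from 30.5, 25.3 and 30.8 to 88.3, 67.0 and 65.6 in CD45.2 (1.32, adjusted p = 9.61e-07). Irgm1, a GTPase of autophagy, rose at 14583 bp from 6.22, 3.67 and 5.73 to 14.1, 19.4 and 16.8 in CD45.1 (1.67, adjusted p = 0.00505, or 0.117 with an offset for peak width) and from 5.44, 5.27 and 6.04 to 30.3, 30.3 and 34.1 in CD45.2 (2.51, adjusted p = 6.03e-07). In none of these did treated and untreated libraries of a population overlap.

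Some sites called as less open in host microglia without LPS had more tags in them after it. The same untreated CD45.2 libraries served both comparisons, so a rise in CD45.2 was favoured by the choice of sites. The interaction, given below, called none of these sites. The Eif2ak2 peak at -8653 bp rose from 10.9, 12.6 and 17.6 to 35.3, 50.5 and 59.5 in CD45.2 (1.84, adjusted p = 1.40e-07), and in CD45.1 from 29.9, 30.0 and 36.5 to 50.4, 54.4 and 69.9 (0.86, adjusted p = 0.0126). The CD45.1 call was lost without LPS mouse 3 (0.135) or untreated mouse 4 (0.0648) or mouse 5 (0.0586). The Gbp3 intron rose in CD45.2 from 6.53, 4.22 and 4.40 to 25.2, 17.7 and 13.1 (1.86, adjusted p = 0.00153), while CD45.1 had 32.4, 22.7 and 20.8 and then 23.4, 46.6 and 29.4. Parp14 at -31115 bp rose in CD45.2 from 0, 0.527 and 0.549 to 2.52, 2.53 and 11.4, a ratio of 12.7 (3.74 to 143, from 16 against 2.5 tags, adjusted p = 0.00558) that was lost without LPS mouse 3 (0.218). In CD45.1 it rose from 12.4, 12.2 and 20.1 to 37.5, 31.1 and 26.6 (1.10, adjusted p = 0.0490), lost without any of 8 libraries (0.0532 to 0.207). The Mx1 site at -9766 bp rose in CD45.1 from 9.96, 5.51 and 11.5 to 24.6, 29.2 and 22.4 (adjusted p = 0.0160, or 0.101 without untreated mouse 5) and had 0, 1.26 and 1.75 in LPS CD45.2 libraries. Apart from these, Zbp1 at -11053 bp, in an intron of Pmepa1, rose in CD45.1 (1.17, adjusted p = 0.00337, or 0.338 with the width offset and 0.0512 without LPS mouse 2).

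Some distal sites closed. Oasl1, a 2-5A synthetase-like protein without that activity, fell at -6293 bp from 29.9, 42.9 and 34.4 to 17.6, 5.83 and 5.60 in CD45.1 (-1.80, adjusted p = 0.000913) and from a lowest of 23.9 to 20.2, 5.05 and 15.8 in CD45.2 (-1.58, adjusted p = 0.00216, or 0.0706 without LPS mouse 2). Irgm1 at 17734 bp fell in CD45.1 from 27.4, 19.6 and 27.2 to 7.03, 9.72 and 14 (-1.28, adjusted p = 0.0181) and had 23.9, 26.3 and 20.9 and then 30.3, 19 and 24.5 in CD45.2. That call was lost without LPS mouse 1 (0.127) or mouse 2 (0.0645) or untreated mouse 4 (0.0679). Slfn5 at 640 bp fell in CD45.2 (-1.11, adjusted p = 0.0479), a call lost without any of 9 libraries (0.0517 to 0.224).

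**Figure D5:**
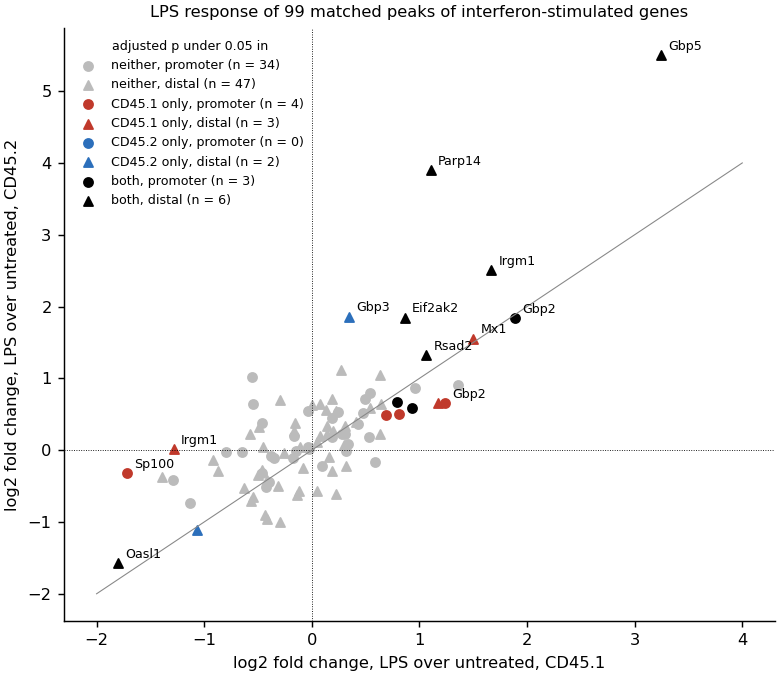
Log2 fold change of LPS over untreated in CD45.1 (x axis) and in CD45.2 (y axis) for the 99 matched member peaks, coloured by the population in which the peak passed an adjusted p of 0.05. The 9 peaks called in both have the same direction in both, and Gbp5 at -18394 bp is the highest in CD45.2 at 5.50. Both axes come from 1 model over 12 libraries, and the grey diagonal marks equal change in both populations.

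Of the 18 peaks called in either population 9 were called in both, 7 in CD45.1 alone and 2 in CD45.2 alone. A call in 1 population alone is no difference between them. The interaction of population and treatment, which tests that difference, called 0 of 41 promoter and 0 of 58 distal member peaks with DESeq2, against 0.0836% and 0.302% of all matched peaks, and 0 with edgeR. At an unadjusted p under 0.05 it reached 1 promoter, of the RNA sensor regulator Dhx58 (-1.19, SE 0.50), and 4 distal peaks (Gbp3 at 1161 bp, Eif2ak2 at -8653 bp, Irgm1 at 17734 bp and Parp14 at -31115 bp). The interaction is the LPS effect in CD45.1 minus that in CD45.2, and its estimate was below 0 at these 5 peaks. No share of all matched peaks at the unadjusted threshold is given, so no difference follows from them. The median interaction was -0.04 at member promoters (all -0.03) and -0.13 at distal member peaks (all -0.015). For Gbp3 the interaction was -1.51 (SE 0.60, adjusted p = 0.633) and for Eif2ak2 -0.98 (SE 0.41, adjusted p = 0.724).

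The matching left out peaks whose width or position differed between the tables. When any overlap was accepted instead, more entered. The examples given here were chosen after their values were seen, and the offset for width was combined with this matching only after seeing the data. The Oasl1 promoter at -76 bp was one, with a width of 105 bp in the untreated and 220 bp in the LPS table. It rose from 8.40, 10.4 and 9.32 to 34.0, 28.2 and 40.6 in CD45.1 (1.81, adjusted p = 0.000122, and 1.05, 0.0491 with an offset for width) and from 5.44, 4.22 and 6.04 to 22.7, 30.3 and 57.3 in CD45.2 (2.87, adjusted p = 7.12e-09, and 2.11, 8.76e-05 with the offset). Rtp4, which encodes a chaperone of receptors and an antiviral RNA-binding protein, rose at -18112 bp in CD45.2 from 2.72, 3.16 and 5.49 to 31.5, 25.9 and 38.9 (3.02, adjusted p = 3.34e-07, and 1.99, 0.00301 with the offset). Its CD45.1 call (1.70, adjusted p = 0.00915) was lost with the offset (0.68, 0.396). The Ifi47 promoter went from 1.63, 1.58 and 1.10 to 12.6, 5.05 and 8.75 in CD45.2 (2.40, adjusted p = 0.00515, lost with the offset at 0.119), and its interaction was -1.72 (SE 0.77, adjusted p = 0.757).

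The genes that run the pathway, 36 of them taken as a list apart from the members, gave the setting of these values. Without LPS, 1 of their 37 promoter peaks was more open in CD45.1 cells and 0 in CD45.2, against 2.74% and 2.27% of all promoter peaks. Of their 224 distal peaks 26 and 6 were called (against 10.2% and 7.48% of all distal peaks). The medians were 0.08 at promoters and 0.10 at distal peaks. The called promoter was that of the phosphatase Ptpn6 (SHP-1), an inhibitor of the pathway (1.59, SE 0.45, adjusted p = 0.00428). Of distal peaks, Irf1, an activator of the same genes, had 1 at 12990 bp (3.22, SE 0.49, adjusted p = 7.11e-09), and the receptor chain Ifngr2 had 1 at 14675 bp that was more open in CD45.2 (-1.52, SE 0.33, adjusted p = 0.000126). After LPS 0 of 32 promoters were called in either direction (against 1.09% and 1.09% of all promoter peaks). Of 186 distal peaks, 4 were more open in CD45.1 cells, 3 of Tlr4 and 1 of the kinase Tbk1. In CD45.2 1 was more open, of Ifngr2 (against 5.04% and 2.8% of all distal peaks). In response to LPS, 1 of 28 promoters rose and 1 fell in CD45.1 (against 13.7% and 7.62% of all matched promoter peaks). The promoter that fell was that of Irf2bp2 (-0.79, adjusted p = 0.0207). In CD45.2, 1 rose, that of the inhibitor Socs3 (0.78, adjusted p = 0.00462), and 0 fell (against 9.9% and 2.33%). Of 137 distal peaks 13 rose and 19 fell in CD45.1 (against 12.1% and 7.34% of all distal peaks), and 16 rose and 11 fell in CD45.2 (against 12.3% and 6.02%). A peak in intron 5 of Irf2, a repressor of interferon responses, at 71717 bp rose in both, by 2.70 (log2) in CD45.1 cells and 5.89 in host CD45.2 cells, and was the only peak of the list with a called interaction (-3.19, SE 0.77, adjusted p = 0.0185).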

How the data were processed

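ATACseq libraries of CD45.1 and CD45.2 brain macrophages were analysed from the deposited merged peak tables, 1 per treatment. The authors merged the peaks of 6 libraries, annotated each to the nearest start site on mm9 and counted tags with HOMER. The deposited values are estimated counts (expected counts), not normalised, in steps of 0.5 tag. Of these, 49.1% (untreated) and 47.7% (LPS) were not whole, and all were rounded for fitting. The submitters' notes name bcl2fastq 2.17.1.14, Bowtie2, Picard 1.108 and HOMER. The handling of multiply mapped reads and any shift of read ends are not given in the sources used here, which matters for near-identical family members (Oas, Gbp, Irgm). The 12 per-library peak lists were not used. Every column of values was mapped to a sample (0 left over).

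DESeq2 1.42.0 (R 4.3.3) tested the 59170 of 60288 and 49180 of 54953 peaks that exceeded a count of 10 in any library (median-of-ratios size factors, Wald test, Benjamini-Hochberg over all tested peaks), 3 against 3 libraries. An adjusted p left undefined was kept so. LPS responses and the interaction came from 1 model over 12 libraries and peaks matched one to one at 50% reciprocal overlap (39390 pairs). Of the member pairs, 1 was named Psmb9 in the untreated and Tap1 in the LPS table. edgeR 4.0.16 and other settings were alternatives. With under 3 tags in the lower group over its 3 libraries, a ratio of tags with its exact 95% interval is given in place of the fitted fold. The interval used tag sums rounded to whole numbers, and the ratio the sums as printed. Scripts were tested on simulated data. Depth was 2966364 to 9107770 tags per library. Replicates are mice. Both populations of a mouse share its number, per the series' description. Deviations of same-mouse libraries correlated at 0.14, 0.06 and 0.08 (untreated) and -0.20, 0.07 and 0.07 (LPS).

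Members and lists were chosen with earlier results of these data known. Named peaks were called members (up to 10 by adjusted p, per direction and class), the strongest promoters of 15 preset genes and the genes with most or no peaks. Start sites and exons for sequences came from GENCODE vM1 on the same build. All 46 members matched by symbol. The values of 1 pathway gene are not reported here.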

Additional observations from a re-analysis of the deposited data

How the results depend on the processing

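Of 684 refits of single called peaks under other settings 552 kept the call and 0 reversed, and 16 of 46 called peaks kept it in all. Of 368 refitted counts 296 stayed within 1.5 times. The others are given here, and their cause was not tested beyond the fewer peaks or libraries that some settings use.

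Without LPS, the 4 promoters more open in CD45.1 became 9 with edgeR, 1 with total-tag scaling, 2 with the replicate block, 1 under the stricter rule and 1 to 5 with a library left out. The 11 distal peaks became 3 at a mean count of at least 20, 6 with total tags, 5 with the replicate block and GC correction, 6 under the stricter rule and 5 to 10 with a library left out. edgeR called 2 distal peaks (Gbp3 at 287 bp, Ifih1 at 6457 bp) towards CD45.2, against 0. After LPS, the promoter became 4 with edgeR and 0 at a mean of 20. The 3 distal peaks became 6 with edgeR, 0 at a mean of 20, 1 with the block and GC correction and 1 to 4 with a library left out, and edgeR called 1 (Irgm1 at 17702 bp) towards CD45.2. The replicate block changed no origin call beyond the 5 named with it.

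For LPS in CD45.1, the 6 promoters that rose became 2 with total tags (4 to 6 with a library left out). The 1 that fell became 2 with edgeR, 0 at a mean of 20 or with total tags, 4 with the width offset under either matching and 0 to 2 with a library left out. The 7 distal peaks that rose became 3 at a mean of 20 or with total tags, 4 with the width offset under either matching and 4 to 7 with a library left out. The 2 that fell became 5 with edgeR, 4 at a mean of 20 or by any overlap, 0 with total tags and 1 to 3 with a library left out. In CD45.2, the 3 promoters that rose became 6 with edgeR, 1 with total tags, 5 by any overlap or with the width offset, 6 with both and 1 to 3 with a library left out. The 0 that fell became 2 with the width offset under either matching and 1 with promoters taken within 1000 bp. The 6 distal peaks that rose became 3 at a mean of 20. The 2 that fell became 4 with edgeR or with the width offset under either matching, 0 with total tags, 1 with the 1000-bp promoters and 0 to 2 with a library left out. The interaction stayed at 0 in every setting run. Total-tag scaling shifted the median of all peaks by 0.14 (log2) between populations after LPS and by -0.15 for LPS in CD45.2. Matching any overlap with the width offset was chosen after seeing the data. LPS libraries held fewer tags, which limits what could be called there.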
